A study of Homo sapiens with 4 samples.

Results

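The urokinase system and a small group of matrix proteases were examined in KYSE410, a cell line established from a human squamous carcinoma of the esophagus, by their probe sets on Affymetrix 3' expression arrays. The genes were PLAU, PLAUR, PLAT, SERPINE2, SERPINB2, ADAMTS1, MMP1, MMP10 and MMP14, and every probe set whose platform annotation gave exactly 1 gene symbol equal to a listed gene was taken. This found 16 of 54613 probe sets, which covered 8 of the 9 genes and 8 of 19775 genes with such a probe set. No probe set carried SERPINB2 as its single symbol, so it was not analysed here. The genes were selected on their differences between the YM155 arrays and each untreated array, together with their known roles. Their differences between the groups are therefore given as a description and were not tested.

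Groups of cells in RPMI medium with serum and antibiotics were compared, one treated with 20 nM YM155 for 6 h (2 arrays) and one left untreated (2 arrays). YM155 is a drug candidate found in a screen for compounds that lower survivin expression. One protocol field of the labels speaks of cisplatin instead; the drug named by the treatment labels and the title was taken. Unexplained codes, B1 on one and B2 on the other, stand in the treated samples' titles. Nothing in the labels says whether the arrays of a group came from separate cultures, so the spread between them may be technical. KYSE410 is a single line, and its response stands for that line only.

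Urokinase, the product of PLAU, is a secreted serine protease that binds its cell-surface receptor, the product of PLAUR, and there cleaves plasminogen to plasmin. Plasmin dissolves fibrin, degrades matrix and activates latent matrix metalloproteases. Tissue plasminogen activator (PLAT) cleaves the same substrate, mainly on fibrin, and the serpins SERPINE2 and SERPINB2 inhibit these activators. The collagenase MMP1, the stromelysin MMP10, the membrane-anchored MMP14 and the aggrecan-cleaving ADAMTS1 are zinc proteases that cut matrix and other extracellular proteins. In squamous carcinomas the system is known mainly for its part in invasion.

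The untreated arrays stood apart from each other more than the YM155 arrays did. Of 32768 probe sets kept after a filter on dim signals, 56 differed at least 2-fold between the YM155 arrays and 1690 between the untreated arrays. Between the YM155 arrays and untreated replicate 1, 739 and 850 probe sets were that far apart, and between the YM155 arrays and untreated replicate 2, 1811 and 2140. Untreated replicate 2 was thus the farther from the treated arrays over all probe sets, whereas replicate 1 was the farther for PLAUR and the brighter ADAMTS1 probe set. All values were relative to the other genes of the array, because the arrays had been set to a common distribution. The 3' to 5' signal difference of ACTB, a sign of RNA integrity, was 2.10 and 2.95 log2 in YM155 arrays and 2.72 and 2.18 log2 in untreated arrays, so the groups overlapped. That of GAPDH was 0.033 and 0.21 log2 in YM155 arrays and 0.042 and 0.043 log2 in untreated arrays. YM155 replicate 2 was the highest array for both. Of 15 squamous markers, 11 had a probe set, all of them above the filter, with SFN brightest at 12.8 log2. Their summed intensity was 18411 to 19324 in YM155 arrays and 13590 to 14851 in untreated arrays, and its part in the results below was not tested. For markers of other cell types the groups overlapped. The 9 fibroblast markers summed to 161 to 180 in YM155 arrays and 166 to 180 in untreated arrays. Of these, 4 were above the filter, with COL1A1 brightest at 6.16 log2, and COL1A2, COL3A1, LUM, FAP and PDGFRA were below it. The 5 leukocyte markers with a probe set summed to 45.5 to 48.4 in YM155 arrays and 45.5 to 46.7 in untreated arrays. Above the filter were 2 of them, ITGAM brightest at 3.78 log2, and PTPRC, CD14 and LYZ were below it. The 6 endothelial markers summed to 90.1 to 92.4 in YM155 arrays and 86.0 to 95.3 in untreated arrays. Above the filter were 3 of them, CLDN5 brightest at 5.19 log2, and CDH5, KDR and TEK were below it.

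The fit across all probe sets made no call. Of 32768 probe sets, limma called 0 higher and 0 lower after adjustment at 0.05 (0% in each direction), with 0.223 as the lowest adjusted p. An unadjusted p under 0.05 was reached by 3633 probe sets, or 11.1%. Leaving out 1 array at a time also gave 0 higher and 0 lower over all probe sets. With 1 probe set per gene, a setting added after the data were seen, the fit without untreated replicate 1 did make calls. That fit held 1 untreated array, so its residual spread came from the YM155 arrays alone. Of the 16 probe sets of the urokinase and protease genes, 14 passed the filter. In 3 of these 14 each YM155 array lay above each untreated array, against 19.4% of all probe sets tested, and in 4 of 14 each lay below, against 23.9%. The median difference, YM155 minus untreated, was -0.07 log2 over the 14 and -0.02 over all probe sets tested. It was 0.07 against untreated replicate 1 and -0.16 against untreated replicate 2. The genes thus had no common direction: signals of PLAUR and ADAMTS1 were higher after YM155 in some of their probe sets, those of MMP14 were lower in each of its probe sets, and in the tested probe sets of the other genes the groups overlapped.

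**Figure D1:**
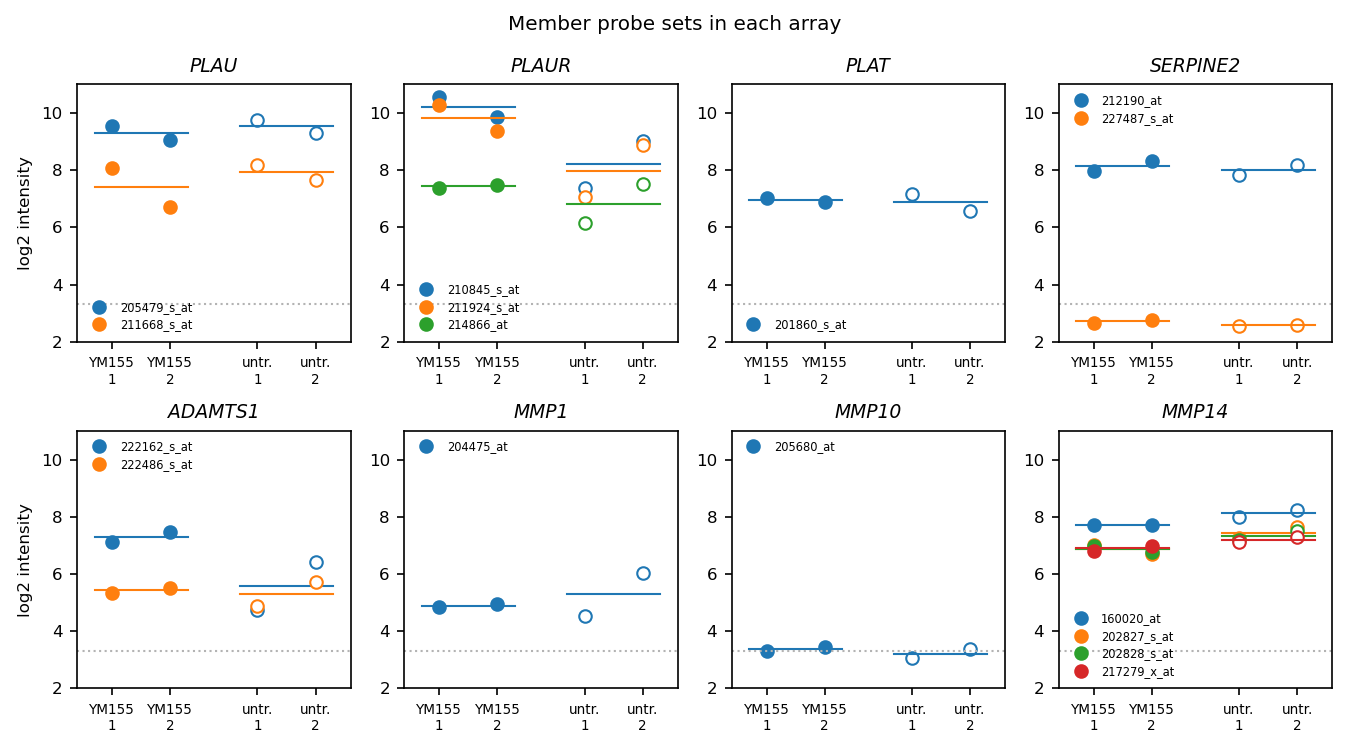
Log2 intensity (y axis) of each probe set in each array (x axis, YM155 replicates 1 and 2, then untreated replicates 1 and 2), 1 panel per gene. Points are arrays, filled for YM155 and open for untreated, lines are group means (n = 2), colours are probe sets, and the dotted line is the filter's limit of 3.32 log2. The 2 brighter PLAUR probe sets stand highest in the YM155 arrays and lowest in untreated replicate 1.

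PLAUR, the urokinase receptor gene, had the largest differences of the group. Its brightest probe set, 210845_s_at, read 10.58 and 9.87 log2 in the YM155 arrays, against 7.39 and 9.04 log2 in the untreated arrays. Both treated arrays lay above both untreated ones, and the untreated replicates were themselves 1.65 log2 apart. The difference was 2.01 ± 0.60 log2 (SE from the fit, n = 2 each), a 4.03-fold higher mean signal. In these bulk samples a larger share of cells with the transcript and more transcript per cell cannot be told apart. Set against each untreated array in turn, the YM155 mean was 7.13-fold that of untreated replicate 1 and 2.27-fold that of untreated replicate 2.

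A second PLAUR probe set, 211924_s_at, followed the same order, with 10.30 and 9.37 log2 in YM155 arrays and 7.05 and 8.87 log2 in untreated arrays. Its difference was 1.87 ± 0.68 log2 (SE), and its array-centred profile lay 0.12 log2 (root mean square over 4 arrays) from that of the brightest probe set. The third, 214866_at, did not separate the groups. It read 7.38 and 7.48 log2 in YM155 arrays and 6.14 and 7.50 log2 in untreated arrays, so that both treated arrays lay inside the untreated range. Its difference was 0.61 ± 0.46 log2 (SE), at 1.29 against untreated replicate 1 and -0.07 against untreated replicate 2. All 3 PLAUR probe sets were lowest in untreated replicate 1, by 1.36 to 1.82 log2 relative to untreated replicate 2.

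The upstream sequence of PLAUR is shown because, among the windows of the listed genes that were searched, only its window held the AP-1 motif. Promoter sequences came from RefSeq (GRCh38.p14), where 6 of the 9 genes had an entry, in 8 windows. The 250 bases before the start of PLAUR, chr19:43670170-43670419 on the minus strand, read 5′ to 3′ with the motif in capitals:
PLAUR: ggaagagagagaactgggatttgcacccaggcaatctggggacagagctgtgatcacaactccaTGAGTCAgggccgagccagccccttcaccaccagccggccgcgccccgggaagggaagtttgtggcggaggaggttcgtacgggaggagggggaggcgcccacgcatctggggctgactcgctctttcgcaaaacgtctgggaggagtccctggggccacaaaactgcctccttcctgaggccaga
The motif TGAGTCA, the usual AP-1 site, was searched on both strands and found 186 to 180 bases before the start. The same search found it in 4.2% of 35116 promoter windows of that length, from all chromosomes. It was not found in the windows of PLAU, SERPINE2, SERPINB2, MMP10 or MMP14. A match of letters does not show that a factor was bound.

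PLAU, the urokinase gene itself, did not separate the groups. Probe set 205479_s_at read 9.56 and 9.05 log2 in YM155 arrays and 9.75 and 9.31 log2 in untreated arrays. The difference of -0.23 ± 0.25 log2 (SE) was no larger than the spread within either group. The other probe set, 211668_s_at, read 8.09 and 6.72 log2 in YM155 arrays and 8.20 and 7.65 log2 in untreated arrays, a difference of -0.52 ± 0.50 log2 (SE). Here the YM155 arrays were 1.37 log2 apart, the widest gap between treated arrays among the 16 probe sets. Without YM155 replicate 2 the differences were 0.02 and 0.16. In both probe sets untreated replicate 1 was the highest array, the opposite of its place for PLAUR.

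The other activator gene and the activator inhibitor gene had small differences. PLAT read 7.02 and 6.90 log2 in YM155 arrays and 7.16 and 6.59 log2 in untreated arrays, so the treated arrays lay between the untreated ones (difference 0.08 ± 0.23 log2, SE). Against untreated replicate 1 alone the difference was -0.20, and against untreated replicate 2 alone it was 0.37. SERPINE2, whose product protease nexin 1 inhibits urokinase and thrombin, read 7.98 and 8.34 log2 in YM155 arrays and 7.82 and 8.19 log2 in untreated arrays. The arrays alternated between the groups, and the difference was 0.15 ± 0.21 log2 (SE), or -0.03 against untreated replicate 2 alone. Its second probe set, 227487_s_at, was below the filter in every array, at 2.66 and 2.78 log2 in YM155 arrays and 2.57 and 2.58 log2 in untreated arrays, and was not tested.

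ADAMTS1, a secreted protease of proteoglycans, resembled PLAUR in its brighter probe set and not in the dimmer one. Probe set 222162_s_at read 7.13 and 7.46 log2 in YM155 arrays, against 4.73 and 6.43 log2 in untreated arrays. Both treated arrays were above both untreated arrays, and untreated replicate 1 was the lowest by 1.70 log2. The difference was 1.72 ± 0.58 log2 (SE), with the YM155 mean 5.94-fold that of untreated replicate 1 and 1.82-fold that of untreated replicate 2. The second probe set, 222486_s_at, read 5.35 and 5.52 log2 in YM155 arrays and 4.89 and 5.72 log2 in untreated arrays, with the treated arrays between the untreated ones. Its difference was 0.13 ± 0.31 log2 (SE), at 0.54 against untreated replicate 1 and -0.29 against untreated replicate 2. The array-centred profiles of the 2 probe sets lay 0.85 log2 apart, so the array gives no single answer for this gene.

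**Figure D2:**
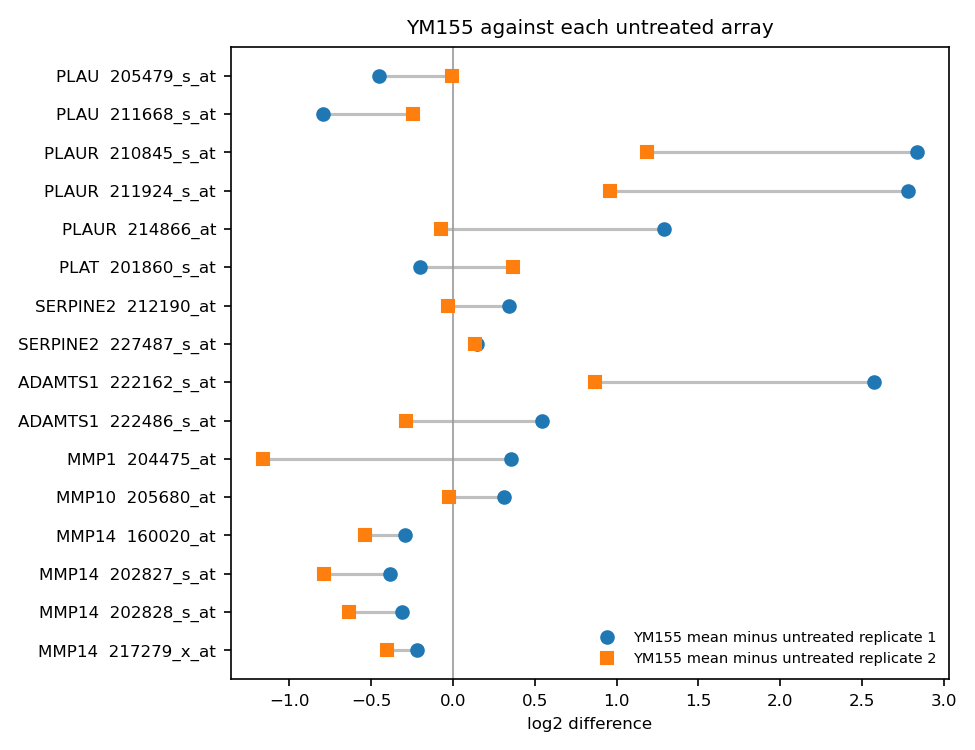
Log2 difference (x axis) of the YM155 mean of 2 arrays from untreated replicate 1 (circles) and from untreated replicate 2 (squares), for each of the 16 probe sets (y axis). Grey lines join the 2 values of a probe set. PLAUR 210845_s_at lies at 2.83 and 1.18, MMP1 at 0.35 and -1.16, and all 4 MMP14 probe sets lie below 0 on both.

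MMP1, an interstitial collagenase, had differences of opposite sign against the 2 untreated arrays. It read 4.83 and 4.93 log2 in YM155 arrays and 4.53 and 6.04 log2 in untreated arrays. The treated arrays were 0.11 log2 apart and lay between untreated arrays that were 1.51 log2 apart. The difference was -0.40 ± 0.51 log2 (SE), made up of 0.35 against untreated replicate 1 and -1.16 against untreated replicate 2. MMP10, whose gene neighbours MMP1 on chromosome 11, had a mean signal just under the filter's limit of 3.32 log2 and was not tested. It read 3.29 and 3.43 log2 in YM155 arrays and 3.05 and 3.39 log2 in untreated arrays, a signal not shown to exceed background.

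MMP14, the membrane-anchored protease that activates MMP2 and cleaves collagen at the cell surface, had lower signals after YM155 in each of its 4 probe sets. Probe set 160020_at read 7.71 and 7.70 log2 in YM155 arrays, against 8.0 and 8.24 log2 in untreated arrays. Probe set 202827_s_at read 7.01 and 6.70 log2 in YM155 arrays, against 7.24 and 7.64 log2 in untreated arrays. In 202828_s_at the values were 6.97 and 6.75 log2 in YM155 arrays and 7.17 and 7.50 log2 in untreated arrays. In all 3 the treated arrays lay below both untreated arrays, with no overlap. The fourth, 217279_x_at, read 6.81 and 6.97 log2 in YM155 arrays and 7.11 and 7.30 log2 in untreated arrays, again without overlap.

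The MMP14 differences were -0.41 ± 0.15, -0.59 ± 0.21, -0.47 ± 0.18 and -0.31 ± 0.15 log2 (SE) in that order, so the mean signal was 1.24-fold to 1.5-fold lower. The MMP14 differences were modest beside those of the brighter PLAUR probe sets. Like those, they had the same sign against either untreated array. They ran from -0.39 to -0.22 against untreated replicate 1 and from -0.79 to -0.40 against untreated replicate 2. The 4 probe sets share 1 transcript source in each array and are not separate replicates of the treatment. They also shared the order of the untreated arrays, with replicate 2 above replicate 1 by 0.19 to 0.40 log2.

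The MMP14 promoter window is shown for contrast with that of PLAUR. It covered chr14:22836335-22836584 on the plus strand (GRCh38.p14, RefSeq), read 5′ to 3′, and the GC box is in capitals:
MMP14: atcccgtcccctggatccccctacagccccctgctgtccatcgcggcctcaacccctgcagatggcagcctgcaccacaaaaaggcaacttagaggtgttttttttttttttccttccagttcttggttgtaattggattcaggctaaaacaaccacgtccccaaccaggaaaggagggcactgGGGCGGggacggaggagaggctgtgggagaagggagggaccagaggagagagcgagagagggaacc
The GC box GGGCGG, a binding motif of SP1-family factors, was searched on both strands and lay 66 to 61 bases before the start. It was in 42.6% of all windows of that length, among them 1 of the 2 windows of PLAU and both of SERPINE2, and it was not found in those of PLAUR, SERPINB2 or MMP10.

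The split between the untreated arrays ran through these genes as well. Untreated replicate 2 was at least 2-fold above replicate 1 in 5 of the 14 probe sets tested, the 3 of PLAUR, 1 of ADAMTS1 and that of MMP1, against 2.57% of all probe sets. In none of the 14 was it at least 2-fold below. In 3 of those 5, the YM155 arrays lay above both untreated arrays, against 5.22% (44 of 843) of all tested probe sets with such a split. In the other 2 the YM155 arrays lay between the untreated arrays. These shares describe genes picked with such values in view.

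**Figure D3:**
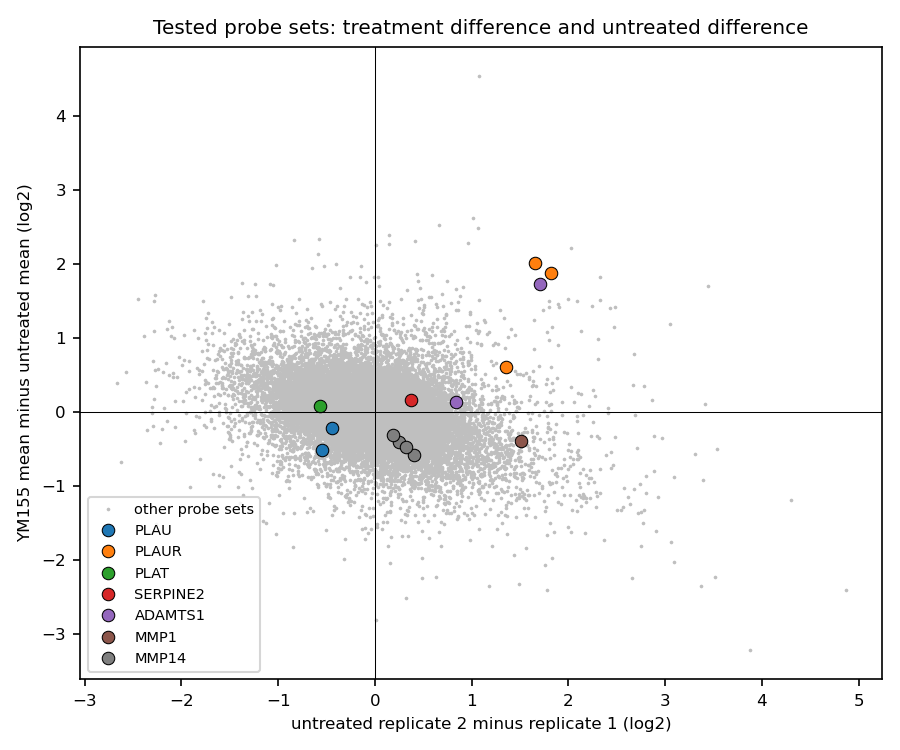
Untreated replicate 2 minus replicate 1 (x axis, log2) against YM155 mean minus untreated mean (y axis, log2) for each probe set tested. Grey points are the other probe sets and coloured points those of the urokinase and protease genes. The 2 brighter PLAUR probe sets and ADAMTS1 222162_s_at lie at the upper right, between 1.65 and 1.82 on the x axis and 1.72 and 2.01 on the y axis.

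The profiles nearest to that of PLAUR 210845_s_at over the 4 arrays were sought among 13160 genes, by the root mean square distance between array-centred log2 values. The 5 nearest were AKAP12 at 0.31 log2, DUSP10 at 0.31, DUSP5 at 0.32, SIK1 at 0.35 and INSIG1 at 0.36. AKAP12 encodes a scaffold of protein kinase A, DUSP10 and DUSP5 MAP kinase phosphatases, SIK1 a salt-inducible kinase and INSIG1 a regulator of sterol synthesis. Each was lowest in untreated replicate 1, at 6.77 to 8.0 log2, and their differences ran from 1.42 for AKAP12 to 2.21 for INSIG1. For MMP14 160020_at the nearest were RGS10, MTSS2, MCU, DYRK3 and CAMSAP3, at 0.016 to 0.022 log2. The 4 arrays give little to tell profiles apart, so the distances only describe these arrays.

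**Figure D4:**
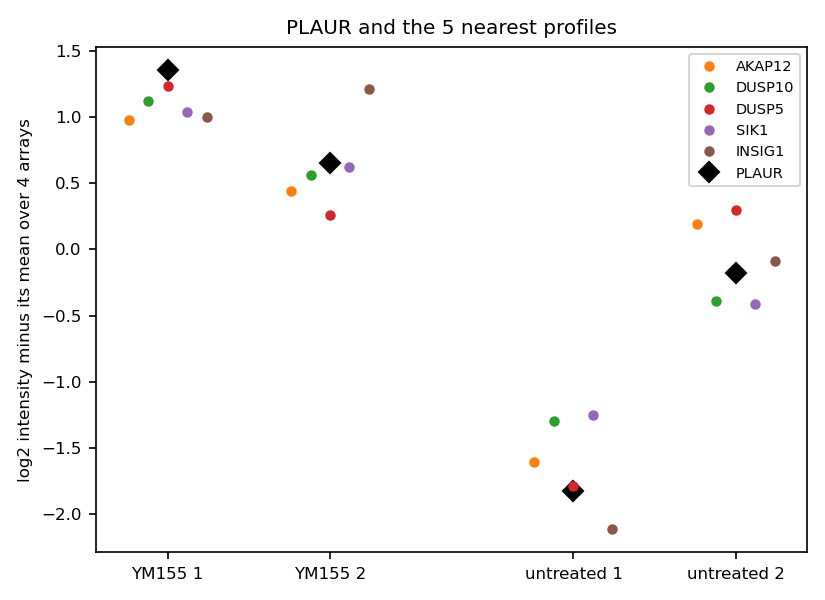
Log2 intensity minus its mean over 4 arrays (y axis) in each array (x axis) for PLAUR 210845_s_at (black diamonds) and the 5 genes with the nearest profile (coloured points, shifted sideways for visibility). Untreated replicate 1 is the lowest array for all 6 genes.

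Among the other genes of plasminogen activation and its surroundings, 16 of 26 listed were tested, and limma called 0 higher and 0 lower (0% of all probe sets), with 2 at an unadjusted p under 0.05, a mark that 11.8% of all genes tested reached. Their median difference was -0.0039 log2, against -0.015 over the 14043 genes tested by their brightest probe set. The YM155 arrays lay above both untreated arrays for 3 and below them for 4, against 19.3% and 25.6% of all genes tested, so both counts were near the background. F3, the gene of tissue factor, which starts blood clotting, read 11.20 and 11.06 log2 in YM155 arrays and 9.36 and 9.99 log2 in untreated arrays (difference 1.46 ± 0.25 SE, limma adjusted p = 0.258). SERPINB8, a serpin gene, stood at 0.74 ± 0.14 (adjusted p = 0.284 by limma) and PROCR, the protein C receptor gene, at -0.43 ± 0.26 (adjusted p = 0.611 by limma). Differences from untreated replicate 2 alone were 1.14 for F3, 0.81 for SERPINB8 and -0.78 for PROCR. Against untreated replicate 1 alone PROCR stood at -0.08.

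Of 20 other matrix metalloprotease genes, 13 were tested, 0 were called in either direction by limma, and 11 had negative differences, against 52.9% of all genes tested. Their median was -0.10 log2, made up of -0.0048 against untreated replicate 1 and -0.18 against untreated replicate 2. Of the 13 genes, 1 had an unadjusted p under 0.05, against 11.8% of all genes tested. Both YM155 arrays lay above both untreated arrays for 0 and below them for 3, against 19.3% and 25.6% of all genes tested. MMP3, a stromelysin and the next coding gene to MMP1, read 6.46 and 7.08 log2 in YM155 arrays and 4.39 and 6.86 log2 in untreated arrays. As for MMP1, its untreated arrays lay far apart, and its groups overlapped (difference 1.14 ± 0.84 SE, limma adjusted p = 0.666). MMP2, a gelatinase whose latent form MMP14 activates, read 6.13 and 6.12 log2 in YM155 arrays and 6.26 and 7.11 log2 in untreated arrays (difference -0.56 ± 0.30 SE, limma adjusted p = 0.566). MMP28 stood at -1.06 ± 0.15 (limma adjusted p = 0.239), with other probe sets at -0.96, 0.32, 0.22 and, below the filter, 0.13. Of 27 ADAM and other ADAMTS genes, 19 were tested and 0 called by limma, with a median of 0.05. An unadjusted p under 0.05 was reached by 1, against 11.8% of all genes tested. For 6 the YM155 arrays lay above both untreated arrays and for 1 below them, against the same 19.3% and 25.6%. ADAMTS6 had the largest difference, 0.91 ± 0.19 (limma adjusted p = 0.312), with other probe sets at 0.39 and, below the filter, 0.10. ADAMTS15 followed at 0.38 in a dim probe set (mean 3.94 log2), and its other probe set gave -0.04. ADAM9 stood at 0.30, and its other probe sets gave -0.28 and -0.36.

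Protease inhibitor genes had 22 of 31 tested, 0 called by limma and 2 at an unadjusted p under 0.05, against 11.8% of all genes tested. The YM155 arrays lay above both untreated arrays for 1 and below them for 4, against 19.3% and 25.6% of all genes tested. The median difference of the list was -0.08 log2. That median was 0.14 against untreated replicate 1 and -0.35 against untreated replicate 2. SERPINB5, the gene of maspin, a non-inhibitory serpin of epithelia, read 9.59 and 9.43 log2 in YM155 arrays and 7.45 and 8.53 log2 in untreated arrays (difference 1.51 ± 0.38 SE, limma adjusted p = 0.336). SERPINB13 stood at -0.94 ± 0.32, or -0.50 against untreated replicate 1 and -1.38 against untreated replicate 2. SERPINB7 stood at -0.83 ± 0.71 with overlap of the groups, and its sign turned on 1 array, with 0.23 against untreated replicate 1 and -1.89 against untreated replicate 2. TIMP1, an inhibitor of matrix metalloproteases, read 10.43 and 10.47 log2 in YM155 arrays and 10.13 and 11.05 log2 in untreated arrays, with overlap of the groups. Of 37 other secreted or surface proteases, 32 were tested and 0 called by limma. An unadjusted p under 0.05 was reached by 2, against 11.8% of all genes tested. For 6 the YM155 arrays lay above both untreated arrays and for 5 below them, against the same 19.3% and 25.6%. The largest differences belonged to TMPRSS11E (-1.23 ± 0.63), PRSS8, the gene of prostasin (-0.93 ± 0.31), and ST14, the gene of matriptase, which can activate urokinase (0.85 ± 0.20). Against untreated replicate 1 alone these differences were -0.28, -0.50 and 1.08, so that ST14 came first, and against untreated replicate 2 alone they were -2.17, -1.35 and 0.61. ST14 read 10.05 and 10.01 log2 in YM155 arrays and 8.95 and 9.42 log2 in untreated arrays.

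The 14 AP-1 and ETS factor genes listed, of families known to act at protease promoters, were all tested, and 0 were called by limma. An unadjusted p under 0.05 was reached by 4, against 11.8% of all genes tested. The YM155 arrays lay above both untreated arrays for 6 (42.9%) and below them for 3 (21.4%), against 19.3% and 25.6% of all genes tested. The median difference of the list was 0.29 log2, but it was 0.26 against untreated replicate 1 and -0.06 against untreated replicate 2. FOS read 6.61 and 6.27 log2 in YM155 arrays and 3.73 and 6.78 log2 in untreated arrays, and so overlapped between the groups. FOSB read 6.34 and 6.41 log2 in YM155 arrays and 4.14 and 5.88 log2 in untreated arrays. ETV5 went the other way, with a difference of -1.28 ± 0.31 (SE, limma adjusted p = 0.333).

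**Figure D5:**
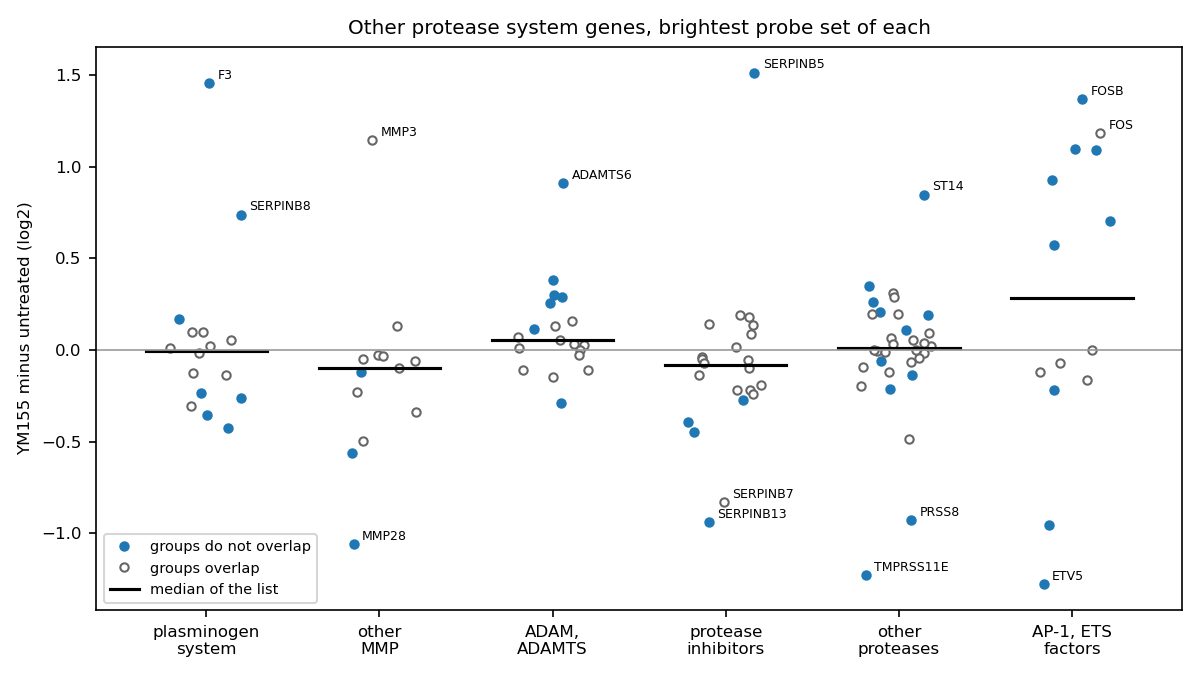
YM155 minus untreated (y axis, log2) for the other genes of the protease system and the AP-1 and ETS factor genes (x axis, 1 column per list), each by its brightest probe set. Filled points are genes whose YM155 and untreated arrays did not overlap, open points the rest, and bars are list medians. F3 (1.46) and SERPINB5 (1.51) stand highest and ETV5 (-1.28) and TMPRSS11E (-1.23) lowest.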

How the data were processed

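Each probe set has 1 intensity per array in the table the authors deposited. The submitters' processing notes name robust multi-array averaging (RMA), with no version or settings. The deposited intensity values ran from 2.42 to 15214, a linear scale, so log2 was taken first. RMA sets the arrays to a common distribution, so a shift shared by all genes is not measured. Scanner files, detection calls and a genome build of the probe sets were not used here.

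The 62 control probe sets were left out. Of the remaining 54613, the platform annotation gave 41091 1 gene symbol, 1801 several and 11721 none, and 41037 matched a RefSeq gene by gene ID. Probe sets whose mean log2 value lay below the 40th percentile (3.32) were not tested, which kept 32768. YM155 was compared with untreated by a two-sided test in limma 3.58.1 (R 4.3.3, lmFit then eBayes) with no covariate, and p-values were adjusted by the Benjamini-Hochberg method over 32768 probe sets and a threshold of 0.05. With 2 arrays per group, 2 residual and 2.69 prior degrees of freedom limit the precision. Other genes were represented by their probe set of highest mean.

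The members and lists were chosen with earlier results of these data known. The genes named are all members, up to 3 genes of each list with the largest absolute difference, TIMP1, and the 5 profiles nearest to PLAUR and to the member with the lowest difference. The fit was checked on data with known answers, where it recovered large changes and missed small ones, so 0 calls do not show that no gene changed. Samples were grouped by their titles and treatment labels. Alternatives were other filters, ways to treat several probe sets of a gene, normalizations, an offset of 16 before log2, another variance model, the replicate number as a block, and each array left out. One probe set per gene together with each array left out was added after seeing the data.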

Additional observations from a re-analysis of the deposited data

How the results depend on the processing

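Limma called 0 probe sets and 0 genes of the other protease lists in either direction under each of the 14 alternatives, and the median difference of the members ran from -0.12 to 0.11 over the 10 that kept all arrays and from -0.16 to 0.07 over the 4 that left out an array. With 1 probe set per gene and without untreated replicate 1, a pair of choices joined after seeing the data, limma called 604 genes higher (4.3%) and 521 lower (3.71%), and 7 higher and 12 lower among 116 genes of the other lists, F3, SERPINB5 and KLK10 among the higher and MMP2, MMP12 and MMP28 among the lower, of which KLK10 and MMP12 are named after their values were seen. That fit takes the spread of the single untreated array to equal that of the YM155 arrays. Against untreated replicate 1 alone, KLK10 stood at -0.46 and MMP12 at 0.86 log2, each of the opposite sign. Without untreated replicate 2 in the same setting, and without either YM155 array, 0 were called, and the members' median was 0.34 without untreated replicate 2.

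With each array left out, PLAUR ran from 1.18 to 2.83 (210845_s_at), from 0.96 to 2.78 (211924_s_at) and from -0.07 to 1.29 (214866_at), ADAMTS1 from 0.87 to 2.57 (222162_s_at) and from -0.29 to 0.54 (222486_s_at), MMP1 from -1.16 to 0.35, PLAU from -0.48 to 0.02 and from -1.20 to 0.16, PLAT from -0.20 to 0.37, SERPINE2 from -0.03 to 0.34, and the MMP14 probe sets from -0.79 to -0.22. The median of the AP-1 and ETS list was -0.06 without untreated replicate 1. No member probe set changed sign under the alternatives that kept all arrays. When probe sets with the _s_at and _x_at suffixes were dropped, the bright PLAUR and ADAMTS1 probe sets dropped out and 0 members lay above both untreated arrays.

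The replicate number as a block called 0 probe sets higher and 0 lower. Arrays of the same number did not deviate together (correlation of deviations -0.033 over probe sets), so the numbers were not taken as pairs.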
